A study of Mus musculus with 4 samples.

Results

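Semaphorins, Eph receptors, ephrins, netrins and netrin receptors are families of guidance proteins, and their genes were compared here in 2 regions of the striatum of old mice, nucleus accumbens and dorsal striatum. Members were taken by gene symbol from the count tables: Sema3 to Sema7 genes, Epha and Ephb, Efna and Efnb, Ntn and Ntng, Unc5a to Unc5d, Dcc and Neo1. This gave 54 of the 32531 gene rows, of which 47 passed the filter on low counts and were tested. All animals were over 20 months old and belonged to the line Drd1-TRAP CP73, in which the promoter of the dopamine receptor gene Drd1 drives EGFP fused to the ribosomal protein Rpl10a. Each region had 2 libraries of total RNA of the kind labelled input, so the values describe whole tissue and not Drd1 cells. No other genotype, age or treatment was compared, and the labels do not say whether the libraries came from separate or pooled animals.

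Guidance proteins steer growing axons and, in the adult brain, sit at synapses and on glia. Semaphorins bind plexins, in class 3 mostly together with neuropilins, and commonly collapse the growth cone. Ephrins are ligands anchored in the membrane of one cell that bind Eph receptor tyrosine kinases on another and can signal in both directions. Netrin-1 attracts axons through Dcc and repels them when Unc5 receptors take part, while Neo1 is a Dcc relative that also binds the repulsive guidance molecules. In the striatum, EphA4 is known as a marker of the matrix compartment, and Dcc and netrin-1 as proteins that shape dopamine axon targeting.

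No guidance gene passed the threshold between the regions, an adjusted p under 0.05 in the quasi-likelihood test of edgeR, against 1.28% of the 14493 genes tested. At an unadjusted p under 0.05 there were 11 of the 47, and the fitted value of each was higher in accumbens. Over all tested genes 10.9% met that rule in this direction and 8.27% in the other. The 11 were the netrin receptor genes Unc5a and Unc5c, the netrin genes Ntn1 and Ntng2, the semaphorin genes Sema4a, Sema5a, Sema5b and Sema6a, the ephrin-B genes Efnb1 and Efnb3, and the receptor gene Ephb2. Of the 47, 32 had a positive log2 fold change (68.1%, against 51.4% of all tested genes) and the median was 0.23, against 0.02 over all tested genes. When libraries were scaled by their size alone, 26 were positive and the median was 0.06, against −0.15 over all genes. With that scaling 9 had an unadjusted p under 0.05, against 21.2% of all genes. Of these 6 were higher and 3 lower in accumbens, against 6.11% and 15.1% of all genes.

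DESeq2 called 3 of the 32 guidance genes for which it gave an adjusted p, Unc5a, Sema5b and Sema6a, against 10.4% of all genes. The tool limma-voom called Unc5a alone among the 47, against 2.97% of all genes. With no filter on low counts edgeR called 5 of 54, adding Sema4a and Unc5d to those 3, against 5.68% of all genes. The groups did not overlap for 23 of the 47, 17 with both accumbens libraries above both of dorsal striatum and 6 below. Over all tested genes 51.2% did not overlap, 25.6% in each direction. The 17 and 6 became 17 and 10 with upper-quartile scaling (23% and 28.8% of all genes) and 12 and 11 with library size alone (17% and 36.5%).

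Depth was 8478403 to 11849134 counts assigned to genes per library, and guidance genes took 0.187% to 0.201% of them. Drd1, whose promoter drives the transgene, was at 299.98 and 286 CPM in dorsal striatum and 258 and 219.8 CPM in accumbens, and all 11 listed markers of striatal projection neurons were detected. Levels are given in CPM, a library's counts brought to a common total after scaling by the trimmed mean of M-values (TMM). Markers of cortical glutamatergic neurons differed between libraries: their summed level was 165 and 74.8 CPM in dorsal striatum replicates 1 and 2 and 390 and 229 CPM in accumbens replicates 1 and 2. Of 11 such markers 10 were tested and 0 passed in edgeR, with 4 higher at an unadjusted p under 0.05. DESeq2 called 1 of the 4 to which it gave an adjusted p, and limma-voom 2 of 10. None was at 0 in every library, and the median log2 fold change was 1.37. Markers of GABA interneurons summed to 158 and 167 against 444 and 321 CPM (2 of 7 passed, higher in accumbens, as did 0.994% of all genes). Those that passed were Sst, at 53.5 and 58.4 against 193 and 143 CPM, and Cck, at 11.9 and 3.83 against 143 and 56.5 CPM. Of the 7, 5 were of positive sign, and Pvalb and Nos1 were negative (log2 fold changes −1.25 and −0.22). Striosome markers summed to 519 and 645 against 1679 and 950.5 CPM (3 of 9, higher, and 8 of positive sign). Of these striosome sums Nnat alone held 68.0 and 93.9 against 863 and 298 CPM. Matrix markers, Epha4 among them, summed to 936 and 974 against 1319 and 1062 CPM (1 of 8, higher, and 5 of positive sign). The matrix marker that passed was Gda, at 148 and 181 against 343 and 317 CPM. Rasgrp2 was lower in accumbens, at 48.6 and 44.7 against 25.3 and 21.8 CPM. DESeq2 and limma-voom each called 1 of the 8 higher and 1 lower. Markers of projection neurons summed to 5152 and 5303 against 4731 and 3989.8 CPM (1 of 11, lower). The projection neuron marker that passed was Rgs9, at 1590 and 1314 against 659 and 663 CPM. In edgeR 3 of the 11 were higher and 2 lower at an unadjusted p under 0.05, against 10.9% and 8.27% of all tested genes. Endothelial and pericyte markers summed to 37.7 and 20.4 against 67.8 and 23.8 CPM, highest in accumbens replicate 1, with 0 of 7 past the threshold or at an unadjusted p under 0.05. Ependymal and choroid plexus markers summed to 14.1 and 15.2 against 11.8 and 12.6 CPM. Of the 3 tested, 0 passed in edgeR and 1 in limma-voom, 2 were lower and 1 higher at an unadjusted p under 0.05, and Ccdc153 was at 0 in both accumbens libraries. Astrocyte markers had 1 of 9 past the threshold, Gja1, higher in accumbens at 27.1 and 28.0 against 52.9 and 58.3 CPM. Septum and ventral forebrain markers had 1 of 6, Ndst4, higher at 10.4 and 12.4 against 27.6 and 35.8 CPM. Positive signs were seen for 5 of the 9 and 2 of the 6. In edgeR 0 passed of 9 oligodendrocyte, 6 oligodendrocyte precursor, 8 microglial, 3 meningeal and vascular fibroblast and 4 cholinergic markers tested. The part of these cell types in the results below was not tested. In bulk tissue, fewer cells of a type and less RNA per cell cannot be told apart.

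**Figure D1:**
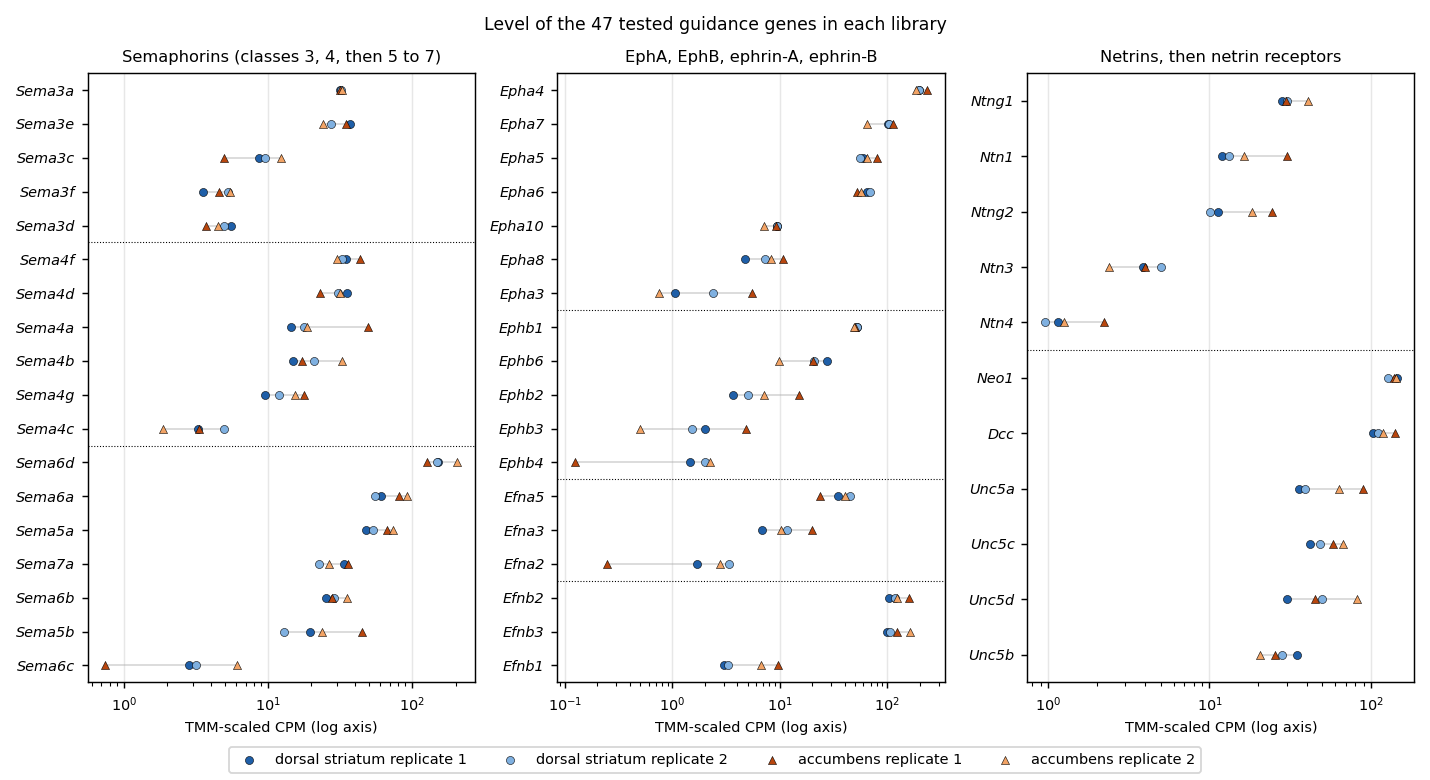
TMM-scaled CPM on a log axis for the 47 tested guidance genes in each of the 4 libraries, with circles for dorsal striatum and triangles for accumbens and a grey line joining the lowest and highest library. Both triangles lie to the right of both circles for 17 genes, Unc5a among them, and to the left for 6, while genes under about 5 CPM such as Ephb4 and Efna2 spread widely between the accumbens libraries.

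Among the receptors, Unc5a came nearest to the threshold. It encodes a netrin receptor with a cytoplasmic death domain and lies on chromosome 13 (54949411 to 55006018, plus strand, mm10). Its level was 35.7 and 39.1 CPM in dorsal striatum replicates 1 and 2 and 89.1 and 63.4 CPM in accumbens replicates 1 and 2. Both accumbens libraries were above both of dorsal striatum, and accumbens replicate 1 was the highest. The log2 fold change was 1.03 (SE 0.21, 95% interval 0.54 to 1.51), a 2.04-fold difference, with an unadjusted p of 0.00112 and an edgeR adjusted p of 0.0609. It passed with limma-voom (adjusted p 0.0378) and DESeq2 (0.00128). With a correction for transcript GC content its log2 fold change was 0.68 (adjusted p = 0.118).

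The 250 bases before the RefSeq start were read from the RefSeq promoter table (GRCm38.p6, the chromosomes of mm10) for 3 of the 4 guidance genes with the smallest unadjusted p: Unc5a (chr13:54949161-54949410, plus strand), Ntng2 (chr2:29248100-29248349, minus strand) and Sema5b (chr16:35541112-35541361, plus strand). They are shown because these genes were among those that stood highest in accumbens relative to their error. Capitals mark the GC box GGGCGG or its reverse complement CCGCCC, so both strands were searched and overlapping matches counted.
Unc5a: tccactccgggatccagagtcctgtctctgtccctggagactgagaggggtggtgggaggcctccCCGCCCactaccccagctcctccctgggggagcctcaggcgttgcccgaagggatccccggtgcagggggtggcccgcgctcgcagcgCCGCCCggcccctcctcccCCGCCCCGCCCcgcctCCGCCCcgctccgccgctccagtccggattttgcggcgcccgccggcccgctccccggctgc
Ntng2: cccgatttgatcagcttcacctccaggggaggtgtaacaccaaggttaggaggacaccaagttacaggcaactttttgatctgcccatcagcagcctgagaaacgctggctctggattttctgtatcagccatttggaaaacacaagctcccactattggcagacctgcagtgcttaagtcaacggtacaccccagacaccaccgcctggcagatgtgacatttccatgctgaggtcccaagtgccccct
Sema5b: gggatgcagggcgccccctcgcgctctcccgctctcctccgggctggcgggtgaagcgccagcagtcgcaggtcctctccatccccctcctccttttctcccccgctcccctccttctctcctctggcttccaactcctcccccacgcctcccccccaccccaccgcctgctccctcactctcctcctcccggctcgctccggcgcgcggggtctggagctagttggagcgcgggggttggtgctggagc
The Unc5a window held 5 boxes and 25 CpG dinucleotides at 76.8% GC, the Ntng2 window 0 and 4 at 52.4%, and the Sema5b window 0 and 19 at 72.0%. Boxes were thus in the shown window of Unc5a and not in those shown for Ntng2 and Sema5b. The box was present in 32.7% of all 32851 windows of this length, and in 43 of the 60 windows (71.7%) of the 47 guidance genes that the RefSeq symbols matched, of 54. Among the members with an unadjusted p under 0.05 it was in 5 of 11 windows (45.5%), from 8 genes. The median GC content was 64.0% for these 11 windows and for the 60, and 52.4% for all windows. The part of GC content in the box counts was not tested. The Ntng2 window lies before a start inside the gene's span in GENCODE (29194541 to 29253005), and most of the Sema5b window lies inside that gene's span, which GENCODE begins at 35541145.

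Of the other netrin receptor genes, Unc5c was at 42.2 and 48.5 CPM in dorsal striatum and 58.0 and 67.5 CPM in accumbens, with no overlap and a log2 fold change of 0.47 (SE 0.18, adjusted p = 0.220). Unc5d was at 30.4 and 49.8 against 45.1 and 81.8 CPM, where replicate 2 was the higher library in each region and the groups overlapped (0.66, SE 0.32). Unc5b, known also from endothelial cells, went the other way at 34.9 and 28.1 against 25.5 and 20.5 CPM, with both accumbens libraries below both of dorsal striatum. The fitted change was −0.45 on the log2 scale (SE 0.25, adjusted p = 0.363).

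Dcc, the attractive netrin receptor gene, stood at 103 and 110 CPM in dorsal striatum and 142 and 120 CPM in accumbens. The accumbens libraries were again the higher ones, with a log2 fold change of 0.29 (95% interval −0.05 to 0.64) and an adjusted p of 0.334. Neo1 was at 145 and 128 against 140 and 144 CPM, and its groups overlapped. The interval of its log2 fold change ran from −0.26 to 0.38, that is from 1.199-fold lower to 1.30-fold higher in accumbens. Of the 6 receptor genes 5 were on the positive side (4 with library size alone), with a median of 0.38.

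Among the ligands, Ntng2 encodes netrin-G2, which is anchored to the membrane and binds the synaptic adhesion protein NGL-2 instead of Dcc. It was at 11.2 and 10.04 CPM in dorsal striatum and 24.3 and 18.3 CPM in accumbens, with no overlap, a log2 fold change of 1.00 (SE 0.30), an unadjusted p of 0.0100 and an edgeR adjusted p of 0.131. Of the bases in its annotated exons 14.0% are shared with the row 6530402F18Rik on the same strand, and how many of its reads this affects is not known.

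Ntn1, which encodes the secreted ligand netrin-1 (chromosome 11, 68209364 to 68400823, minus strand), stood at 11.98 and 13.1 against 30.2 and 16.4 CPM. Accumbens replicate 1 was nearly as far above accumbens replicate 2 as above dorsal striatum. Its fold change was 0.89 on the log2 scale (SE 0.34, adjusted p = 0.216), and 0.38 without that library. Ntng1, the netrin-G1 gene, was at 28.2 and 30.4 against 29.6 and 40.8 CPM and overlapped (0.26, adjusted p = 0.590). The sparse members Ntn3 and Ntn4 were at 3.81 and 1.40 CPM over the 4 libraries, with intervals too wide to order the regions (−1.84 to 0.86 and −1.19 to 2.62).

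Semaphorins of classes 5 to 7 are membrane proteins, and the 7 genes all had a positive log2 fold change, with a median of 0.23. That count was 5 of 7 when libraries were scaled by size alone, with a median of 0.06, and 4 of 7 with the GC correction, where Sema6b, Sema6c and Sema7a turned negative. Sema6a, a transmembrane ligand of plexin-A2 and plexin-A4, stood at 61.0 and 55.4 CPM in dorsal striatum and 81.6 and 92.9 CPM in accumbens. The groups were well apart, with a log2 fold change of 0.58 (SE 0.16, unadjusted p 0.00724, adjusted p = 0.120). Sema5a was at 47.6 and 53.6 against 66.5 and 73.1 CPM, also without overlap, at 0.46 (SE 0.17, adjusted p = 0.195).

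Sema5b, a class 5 gene with thrombospondin repeats like Sema5a (chromosome 16, 35541145 to 35664732, plus strand), was at 19.4 and 13.0 against 45.2 and 23.9 CPM. Both regions varied between their libraries, and accumbens replicate 1 was the highest. Its fitted change was 1.10 on the log2 scale (SE 0.35, adjusted p = 0.151), and 0.57 without accumbens replicate 1. Sema6d, the semaphorin gene with the most counts, stood at 152 and 150 CPM in dorsal striatum and at 127 and 205 CPM in accumbens. The dorsal striatum libraries lay between those of accumbens, and the sign of 0.14 (adjusted p = 0.776) turned without accumbens replicate 2. Sema6b, Sema6c and Sema7a overlapped as well, at 0.23, 0.19 and 0.15, and the sparse Sema6c was at −0.47 with limma-voom.

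In class 4, whose best known members act through B-type plexins, Sema4a (chromosome 3, 88435959 to 88461182, minus strand) was at 14.5 and 17.8 CPM in dorsal striatum and 49.7 and 18.6 CPM in accumbens. The difference rested on accumbens replicate 1, since the other accumbens library was close to dorsal striatum. The log2 fold change of 1.08 (SE 0.42, adjusted p = 0.219) became 0.20 without it. Sema4g did not overlap, at 9.56 and 11.95 against 17.7 and 15.4 CPM (0.62, adjusted p = 0.323). Sema4f and Sema4d, the class 4 genes with the highest CPM and the latter a plexin-B1 ligand, overlapped at 0.13 and −0.28. Sema4b and Sema4c were at 0.47 and −0.65 (adjusted p = 0.520 and 0.635).

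Class 3 semaphorins are secreted, and none of the 5 tested genes had an unadjusted p under 0.05. Sema3a, the classic repellent that signals through neuropilin-1, was at 31.8 and 32.3 CPM in dorsal striatum and 31.6 and 32.8 CPM in accumbens. The 4 libraries were close to each other, and the 95% interval of the log2 fold change ran from −0.46 to 0.47. Sema3e, the plexin-D1 ligand, was at 37.1 and 27.3 against 34.9 and 24.0 CPM, so replicate 1 was the higher library in each region, at −0.12 (adjusted p = 0.853). Sema3d was the one class 3 gene without overlap, at 5.57 and 4.94 against 3.72 and 4.50 CPM (−0.35, SE 0.50, adjusted p = 0.763). Sema3c and Sema3f were at −0.06 and 0.19.

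**Figure D2:**
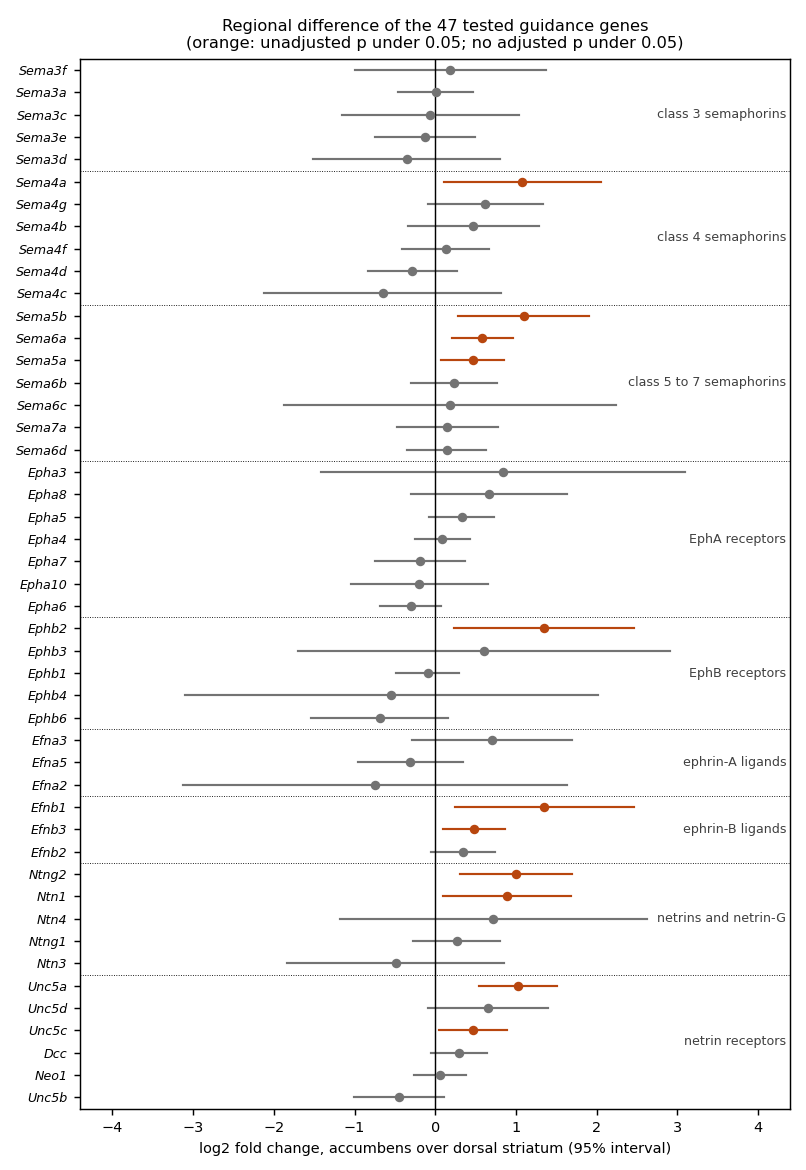
Log2 fold change of accumbens over dorsal striatum with its 95% interval for the 47 tested guidance genes, grouped by family, with the 11 of unadjusted p under 0.05 in orange. Each orange interval lies above 0, none of the genes passed after adjustment, and the intervals are widest for sparse genes such as Ephb4 and Efna2.

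EphA receptors bind ephrin-A ligands, and of the 7 tested genes 4 had a positive and 3 a negative fold change, with a median of 0.09 (3 positive with library size alone). Epha4, the matrix marker, also binds ephrin-B ligands and had the most counts of any guidance gene. It was at 197 and 199 CPM in dorsal striatum and 234 and 186 CPM in accumbens. The accumbens libraries lay on both sides of dorsal striatum, and the interval of −0.25 to 0.43 allows a difference of up to 1.19-fold lower or 1.34-fold higher. Epha7 was at 101 and 103 against 114 and 65.3 CPM, again with the accumbens libraries on both sides (−0.19, adjusted p = 0.727).

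Epha5 and Epha6 had opposite signs. Epha5 was at 59.2 and 55.9 against 79.8 and 64.9 CPM, both accumbens libraries being higher (0.33, SE 0.18, adjusted p = 0.351). Epha6 was at 65.2 and 68.8 against 52.4 and 56.4 CPM, both being lower (−0.30, SE 0.16, adjusted p = 0.365). The difference between these genes' fold changes was not tested. Epha8 (0.66) and Epha10 (−0.20) did not overlap either, with adjusted p = 0.439 and 0.825. Epha3 had the largest fold change of the family, 0.83, but its accumbens libraries held 44 and 6 counts, and without accumbens replicate 1 the value was −1.21.

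EphB receptors bind ephrin-B ligands and act at excitatory synapses. Ephb2 (chromosome 4, 136647539 to 136835988, minus strand) was at 3.68 and 5.02 CPM in dorsal striatum and 15.1 and 7.13 CPM in accumbens. Accumbens replicate 1 was far above the others, and accumbens replicate 2 just above dorsal striatum. On the log2 scale the fold change was 1.35 (SE 0.49, adjusted p = 0.188), and 0.70 without accumbens replicate 1. Ephb6, a receptor without kinase activity, was at 27.4 and 20.96 against 20.2 and 9.75 CPM, both lower in accumbens (−0.69, SE 0.37, adjusted p = 0.355). The value was −1.31 without accumbens replicate 1 and −0.26 without accumbens replicate 2. Ephb1, the family's most abundant gene per length, was at 52.2 and 52.6 against 49.8 and 48.5 CPM, both lower in accumbens, with an interval from −0.48 to 0.30. Ephb3 and Ephb4, at 2.21 and 1.46 CPM over all libraries, had accumbens counts of 39 and 4 and of 1 and 18.

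Ephrin-B genes encode transmembrane ligands, and all 3 had a positive fold change, also under each other scaling. With TMM 51.4% of all tested genes were positive. The groups of all 3 did not overlap with TMM, accumbens being higher, as for 25.6% of all tested genes. Efnb3 (chromosome 11, 69554092 to 69560205, minus strand) was at 100 and 106 CPM in dorsal striatum and 124 and 163 CPM in accumbens. Accumbens replicate 2 was the higher one here, unlike for Efnb1, Efnb2, Ephb2 and Ntn1. This gave 0.48 on the log2 scale (SE 0.17, adjusted p = 0.177), and 0.27 with the GC correction or without accumbens replicate 2. Efnb2 was at 103 and 119 against 160 and 122 CPM, where dorsal striatum replicate 2 and accumbens replicate 2 nearly met (0.35, adjusted p = 0.323). Efnb1, on chromosome X (99136130 to 99148991, plus strand), was at 3.05 and 3.27 against 9.54 and 6.63 CPM, with Ephb2 the largest fold change of all 47 at 1.35 (SE 0.48, adjusted p = 0.184). It rests on 29 to 77 counts per library.

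Ephrin-A ligands are tied to the membrane by a lipid anchor, and none of the 3 tested genes separated the regions. Efna5, the most abundant of them, was at 34.9 and 44.6 against 23.7 and 40.6 CPM. Replicate 2 was the higher in both regions, and the log2 fold change was −0.31 (SE 0.29, adjusted p = 0.608). Efna3 was at 6.83 and 11.6 against 19.9 and 10.3 CPM, with 1 accumbens library above and the other between those of dorsal striatum (0.70, adjusted p = 0.422). Leaving out 1 library gave 0.13 (accumbens replicate 1) to 1.14 (dorsal striatum replicate 2), and 14.1% of its exon bases are shared with Gm15998 on the other strand. Efna2 held 16, 42, 2 and 22 counts in the order used above and allowed no order (−0.75, SE 1.04).

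Levels can be compared between genes per transcript length, as mean CPM per kb of the longest coding transcript over all 4 libraries. The highest were Efnb3 at 38.8, Epha4 at 32.2, Efnb2 at 26.3, Sema6d at 24.6 and Neo1 at 18.8 CPM per kb, followed by Epha6 (15.4), Unc5a and Epha7 (both 14.2), Dcc (11.5) and Ephb1 (10.9). Ligands thus held places beside receptors at the top. Among netrin ligands Ntng2 led at 8.48 CPM per kb, above Ntng1 at 5.77 and the secreted Ntn1 at 3.05, all below the receptors Neo1, Unc5a and Dcc. Per kb of all exons Ntng2 and Ntng1 were close, at 3.998 and 3.91, Ntn1 was at 2.86, and Sema6d at 15.003 was below Neo1 at 16.0.

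Within the netrin receptors, Unc5a stood at 9.37 CPM per kb in dorsal striatum, below Dcc at 10.3, and at 19.1 in accumbens, above Dcc at 12.7 and next to Neo1 at 19.2. Per kb of all exons it was above Dcc in both regions, at 8.98 against 8.09 in dorsal striatum and 18.3 against 9.93 in accumbens. Within EphA receptors, Epha4 alone made up 41.9% and 41.3% of the family's summed level in dorsal striatum and 44.2% and 44.7% in accumbens. Ephb1 made up 57.2% and 62.3% of EphB against 57.8% and 72.9%. These shares describe the libraries and were not tested.

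Summed over a family, ephrin-B genes were at 53.9 and 59.2 CPM per kb in dorsal striatum and 75.4 and 78.9 in accumbens. Netrins and netrin-G genes were at 14.2 and 14.3 against 24.8 and 20.6, and netrin receptors at 52.1 and 53.0 against 70.2 and 66.3. In these 3 families the accumbens sums were above those of dorsal striatum with TMM, DESeq2 size factors, upper-quartile scaling and library size alone. Sums of class 4 and of classes 5 to 7 were above as well (up to 40.4 against 29.6, and 76.3 against 58.7), but overlapped with library size alone. EphA (74.3 and 76.1 against 83.6 and 65.8) and ephrin-A sums overlapped with TMM, as did class 3 and EphB sums, which were lower in accumbens under upper-quartile scaling. With library size alone the class 3, EphA and EphB sums were all lower there.

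**Figure D3:**
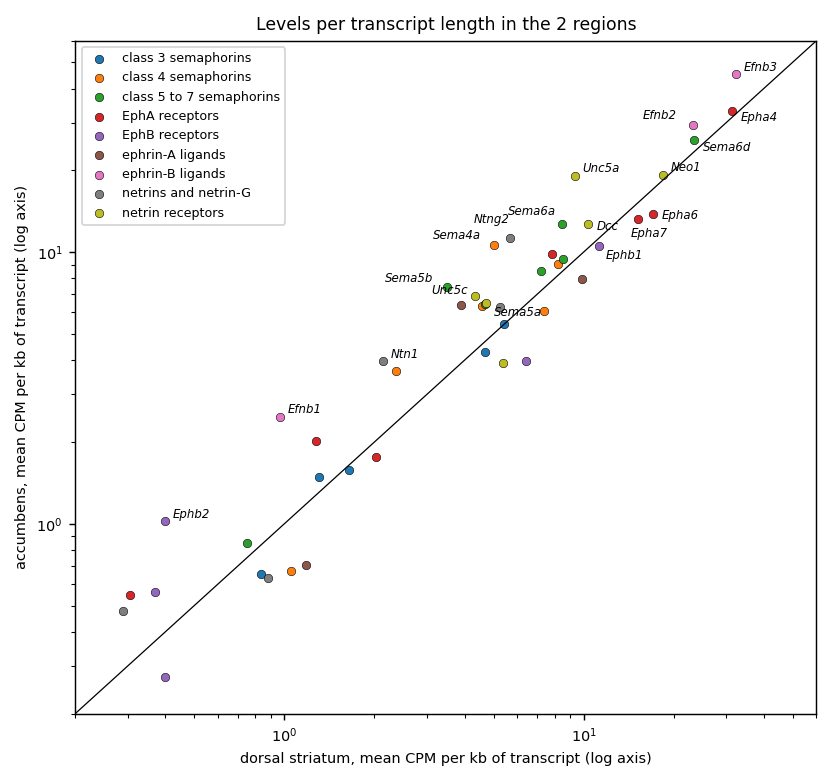
Mean CPM per kb of transcript in dorsal striatum and in accumbens for the 47 tested guidance genes, both axes logarithmic, colored by family, with the line of equal level. Efnb3, Epha4, Efnb2 and Sema6d lie at the top near the line, and Unc5a lies above it at 19.1 against 9.37.

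Of genes that bind or signal with these proteins, 69 were tested in 5 lists, and 4 passed, all higher in accumbens (0.994% of all genes). The receptors of semaphorins had 2 of 11 past the threshold, 10 of positive sign under each scaling and a median of 0.66. At an unadjusted p under 0.05 in edgeR 5 of the 11 were higher, against 10.9% of all genes. DESeq2 and limma-voom each called 4 of the 11, all higher, against 10.4% and 2.97% of all genes in either direction. Nrp2, the neuropilin that binds Sema3f, was at 25.3 and 30.0 CPM in dorsal striatum and 60.2 and 60.006 CPM in accumbens. Its accumbens libraries were almost equal, and it rose by 1.12 on the log2 scale (SE 0.19, adjusted p = 0.0431). Plxna1, a co-receptor of neuropilins, was at 37.7 and 43.9 against 76.1 and 91.8 CPM (1.04, SE 0.18, adjusted p = 0.0438). Both missed the threshold without either dorsal striatum library (0.0716 to 0.286) and with library size alone (0.0519 and 0.0558), and Plxna1 also with the GC correction (0.0731).

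Receptor genes and the genes of their ligands can be set side by side. The Sema6a receptor genes Plxna2 and Plxna4 were at 234 and 225 against 447 and 331 CPM, and at 146 and 164 against 353 and 243 CPM, both just short of the threshold (adjusted p 0.0637 and 0.0552). Sema6a itself was farther from it. Nrp2 passed while its ligand gene Sema3f, at 3.57 and 5.26 against 4.58 and 5.50 CPM, overlapped. Plxnd1, the Sema3e receptor gene, was the single one with a negative fold change, at 45.9 and 46.4 against 40.4 and 25.6 CPM (−0.48, adjusted p = 0.329). Plxnc1, the Sema7a receptor gene, was at 58.8 and 77.2 against 98.0 and 89.4 CPM (0.46, adjusted p = 0.221). No difference between a ligand's and a receptor's fold change was tested.

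**Figure D4:**
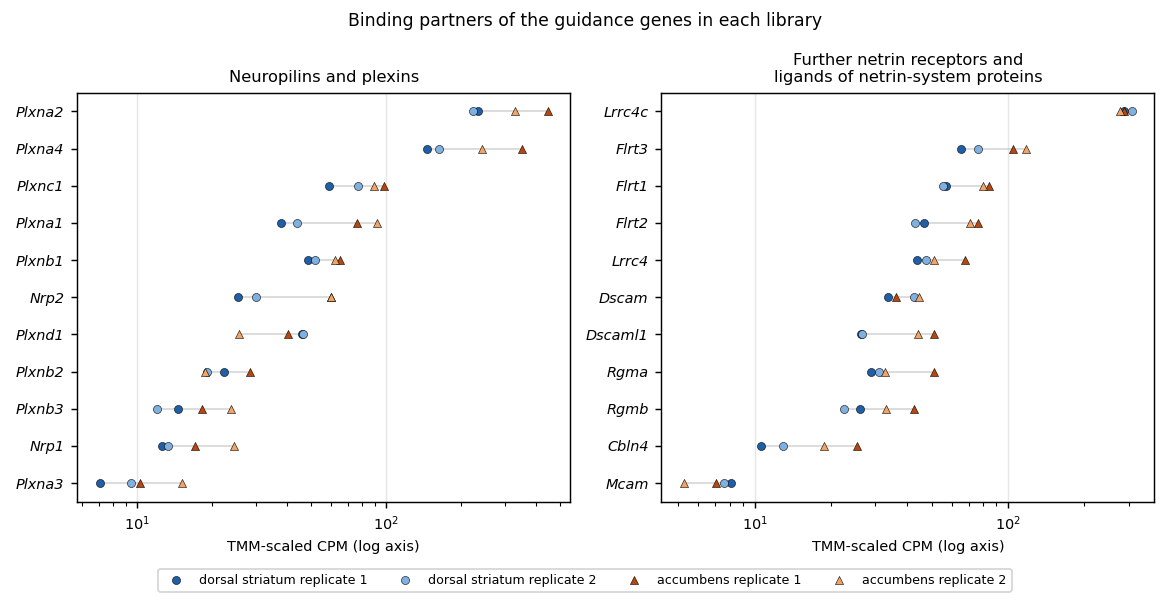
TMM-scaled CPM on a log axis in each library for 11 neuropilin and plexin genes (left) and 11 tested genes of further netrin receptors and ligands of netrin receptors and netrin-G proteins (right). The accumbens triangles lie to the right of the circles for Nrp2, Plxna1, Plxna2, Plxna4 and the 3 Flrt genes, and to the left for Plxnd1.

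Of the 11 tested genes around the netrin receptors 0 passed in edgeR and limma-voom, and 3 of the 10 with an adjusted p in DESeq2 (10.4% of all genes). Of the 11, 6 had an unadjusted p under 0.05 in edgeR and were higher in accumbens, against 10.9% of all genes. A positive sign was seen for 9 with TMM (median 0.55), against 51.4% of all genes. With library size alone it was seen for 8 (median 0.38, against −0.15 over all genes). Flrt1, Flrt2 and Flrt3 encode adhesion proteins, of which FLRT2 and FLRT3 are known ligands of Unc5 receptors. Flrt3 was at 65.2 and 76.2 against 105 and 118 CPM (0.65, SE 0.16, adjusted p = 0.0881), and Flrt2 at 46.8 and 42.9 against 76.2 and 71.0 CPM (0.72, adjusted p = 0.0808). Rgma, a Neo1 ligand gene, was at 28.9 and 30.9 against 51.0 and 32.6 CPM, the second accumbens library close to dorsal striatum. Lrrc4c, the receptor gene of netrin-G1, was at 287 and 309 against 287 and 278 CPM (−0.08, adjusted p = 0.787), and Lrrc4, the receptor gene of netrin-G2, at 43.7 and 47.3 against 67.5 and 51.3 CPM (0.38, adjusted p = 0.337).

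Downstream, Chn2 was the one Eph and ephrin signalling gene of 19 to pass, higher in accumbens. It encodes beta-chimaerin, a Rac GTPase-activating protein, and was at 46.7 and 50.8 CPM in dorsal striatum and 123 and 103 CPM in accumbens, without overlap. It rose by 1.21 on the log2 scale (SE 0.17, edgeR adjusted p = 0.0272). Its relative Chn1, which encodes the effector alpha-chimaerin of Epha4, was at 842 and 835 against 720 and 563 CPM (−0.39, adjusted p = 0.185). Ngef, the ephexin gene, was at 256 and 298 against 236 and 172 CPM (−0.44, adjusted p = 0.218). The median of the list was −0.20, against 0.02 over all tested genes. With TMM 7 of 19 were positive, against 51.4% of all genes, and 3 with library size alone. In edgeR 3 genes were higher and 4 lower in accumbens at an unadjusted p under 0.05, against 10.9% and 8.27% of all genes.

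Rac1, which encodes a small GTPase used by several guidance receptors, was the one netrin signalling gene of 14 to pass, at 421 and 407 against 618 and 643 CPM (0.61, SE 0.11, adjusted p = 0.0491). It missed the threshold with each other scaling (0.0545 to 0.0834) and without either dorsal striatum library. The list was centred on 0, and 7 genes were positive (4 with library size alone). Of 14 tested semaphorin signalling genes 0 passed in edgeR or limma-voom, as did 0 of the 11 with an adjusted p in DESeq2, and 1, Dpysl4, had an unadjusted p under 0.05. Of these 8 were positive, and 4 with library size alone. The most abundant, Dpysl2, the CRMP2 gene, was at 711 and 780 against 778 and 869 CPM (0.14, adjusted p = 0.558), and Arhgef12, which acts downstream of B-type plexins, at 471 and 476 against 542 and 505 CPM (0.14, adjusted p = 0.541).

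Of the 7 members left out by the filter, all but Efna1 had at most 7 counts in any library, and 3 counts correspond to 0.239 to 0.375 CPM. In the order dorsal striatum replicates 1 and 2, accumbens replicates 1 and 2, Efna1 had 4, 7, 28 and 1 counts, and Epha2 3, 3, 7 and 0. Both thus had their highest count in accumbens replicate 1 and their lowest in accumbens replicate 2. Epha1 had 5, 6, 1 and 2 counts, Sema3g 0, 0, 1 and 4, Sema3b 1, 1, 0 and 2, Efna4 0, 1, 0 and 2, and Ntn5 1, 1, 0 and 0. No member was at 0 in all libraries, and these genes were not tested.

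GC content of the transcript moved with the results, and its part in them was not tested. Over all tested genes, the share with an unadjusted p under 0.05 and a higher level in accumbens was 7.66% to 9.47% in deciles 1 to 6 of GC content, 19.7% in decile 9 and 19.4% in decile 10. Of the tested guidance genes 12 lay in decile 9 and 12 in decile 10, and of the 11 genes named above 5 and 2. The median GC content was 57.6% for those 11, 53.0% for the other 36 and 50.01% for all tested genes. With the GC correction 0 guidance genes passed in edgeR, and 10 had an unadjusted p under 0.05, against 18.3% of all genes. Of the 10, 8 were higher and 2 lower in accumbens, against 9.89% and 8.36% of all genes, and Sema6a had an adjusted p of 0.104.

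**Figure D5:**
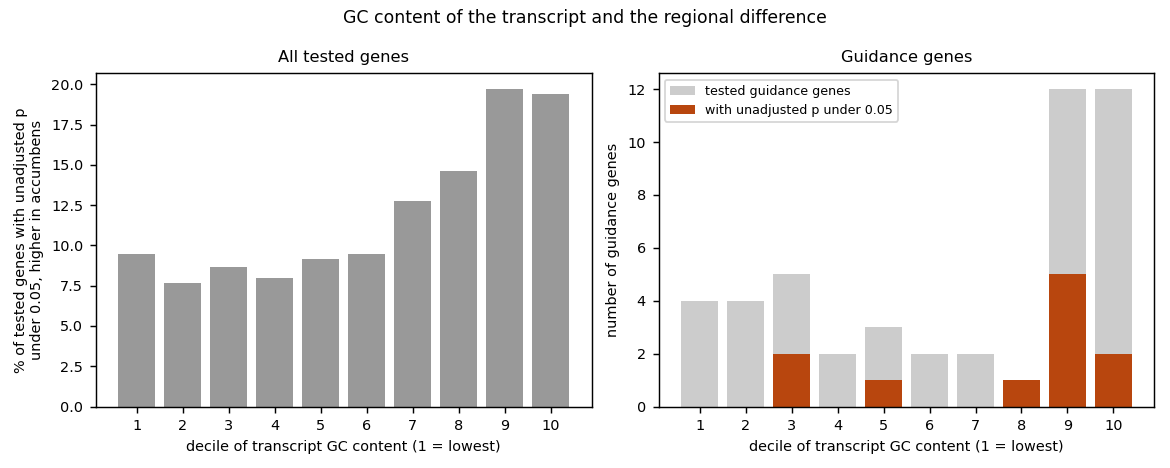
Left, percent of all tested genes with an unadjusted p under 0.05 and a higher level in accumbens by decile of transcript GC content. Right, number of tested guidance genes (grey) and of those with an unadjusted p under 0.05 (orange) in each decile. The share of all genes is highest in deciles 9 and 10, at 19.7% and 19.4%, and 12 guidance genes lie in each of them.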

How the data were processed

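For each of the 2 dorsal striatum and 2 accumbens libraries the authors deposited a table of unnormalized counts by gene symbol. The submitters' processing notes name STAR 2.0.0e, HTSeq and mm10. Annotation and strand setting were not given in the sources used here. Reads of overlapping or antisense genes may therefore be mixed. Of the 54 guidance genes 14 share exon bases with another gene in GENCODE. Rows that name no gene held, of all counts, 27.5% to 35.4% (reads in no feature), 6.06% to 9.46% (ambiguous) and 6.98% to 10.2% (several alignments) and were left out.

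Counts were filtered with filterByExpr, scaled with TMM and tested with glmQLFit and glmQLFTest of edgeR 4.0.16 under R 4.3.3, for region alone. Tests were two-sided, with Benjamini-Hochberg adjustment over all 14493 genes and a threshold of 0.05. Each SE is the absolute log2 fold change divided by the root of F, and 95% intervals use its t quantile. The fit was tested on simulated data. DESeq2 1.42.0 and limma 3.58.1 were alternatives. Transcript lengths and GC content came from GENCODE M21 (GRCm38, as mm10), found for 88.2% of tested genes and all members.

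The members and lists were chosen with earlier results of these data known. Values are given for members with an unadjusted p under 0.05, the 2 with the highest CPM and the largest fold change per family, Epha4 and those not tested, beside partners past the threshold or, where a list had none, its 2 most abundant. Other genes were named after their values were seen. Since no label ties the libraries to separate animals, the p-values cover the spread among these samples alone, which may be technical. A floor of 3 counts reflects counting error alone.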

Additional observations from a re-analysis of the deposited data

How the results depend on the processing

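With an alternative scaling, a filter of 10 counts in every library of a region, the 50 most abundant genes left out or the GC correction (an offset chosen after seeing the data), 0 guidance genes passed, as in the edgeR fit described above. With no low-count filter 5 passed, with DESeq2 3, with limma-voom 1 and with the replicate block 2 (Unc5a and Sema5b). Over all genes 186 passed, and 1203, 918, 431 and 843 did in those 4 settings (of 21169, 8857, 14493 and 14493 tested), and 119 with the GC correction. Of the partner genes 4 passed, 11, 11, 7 and 10 in the same 4 settings, and 1 with library size alone. Chn2 passed in each setting run.

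Leaving out 1 library gave 0 to 18 guidance genes, 2 to 25 partner genes and 109 to 4464 genes in all. The highest counts came from leaving out an accumbens library, where the lone one is assumed to vary as much as the other region's libraries. Without accumbens replicate 1, 11 guidance genes passed (9 higher, 2 lower, against 18.2% of all genes), and without accumbens replicate 2, 18 of 48 (14 higher, 4 lower, against 28.9%). With 1 library left out, the log2 fold change ran from 0.76 to 1.25 for Unc5a and from 0.78 to 1.19 for Ntng2. It ran from 0.49 to 0.67 for Sema6a and from 0.20 to 1.61 for Sema4a. The median log2 fold change of the guidance genes was 0.21 and 0.32 without dorsal striatum replicates 1 and 2. Without accumbens replicates 1 and 2 it was 0.17 and 0.20. Over all tested genes the median lay between −0.02 and 0.03 in these fits.

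Replicate numbers are shared by the regions, but nothing says that they mark shared animals. The replicate block is therefore not read as a paired design. The deviations of same-numbered libraries correlated at 0.03 over 14493 genes. This value cannot show whether animals were shared, since other differences between libraries enter it too.

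Signs turned for several genes, not all near 0. With library size alone the log2 fold changes were −0.17 for Sema3a (−0.048 with upper-quartile scaling), −0.043 for Sema4f (−0.085 with the GC correction), −0.029 for Sema6d, −0.085 for Epha4, −0.11 for Neo1, −0.027 for Dpysl2 and −0.027 for Arhgef12, and Lrrc4c was at 0.0018 with the GC correction. Leaving out a library gave −0.024 to 0.028 for Sema3a, −0.42 to 0.12 for Sema3e, −0.16 to 0.37 for Sema4f, −0.24 to 0.44 for Sema6d, −0.090 to 0.24 for Epha4, −0.65 to 0.15 for Epha7, −1.21 to 1.62 for Epha3, −0.76 to 0.025 for Efna5, −3.30 to 0.10 for Efna2 and −0.034 to 0.13 for Neo1. Ephb3 turned from 0.60 to −1.78 and Ephb4 from −0.55 to 0.36 without accumbens replicate 1, and Sema6c from 0.19 to −2.01 without accumbens replicate 2. The GC correction turned Sema6b (−0.12), Sema6c (−0.12), Sema7a (−0.084), Sema3f (−0.039) and Sema3c (0.0063). The causes were not tested. The summed level of all 54 genes was 364 CPM per kb, and 282 with the length of all exons.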
